A study of Arabidopsis thaliana with 2 samples.

Results

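The genes described here are those of the Arabidopsis thaliana plastid genome, measured in stem RNA on the Affymetrix ATH1 GeneChip, an array that reads each transcript through a set of short oligonucleotides (a probe set). A gene was a member when the platform annotation gave a probe set to that gene alone and the RefSeq gene table (assembly TAIR10.1) placed the gene on the plastid genome. This gave 69 protein-coding genes, each with 1 probe set, of 22746 probe sets analysed. The gene table lists 78 distinct plastid protein gene symbols, and the other 9 have no probe set that names a single gene. The series holds 2 samples with 1 array each, plants carrying 35S::AtC3H14, in which AtC3H14 is expressed from a viral promoter active in most tissues, and wild-type plants. Both were Columbia (Col-0) plants, 30 days old, grown on soil, and the sampled stem ran from the base to internode 3. The labels do not say how many plants or transgenic lines stood behind an array.

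Chloroplasts keep a small genome of cyanobacterial origin that encodes core subunits of the photosystems, the cytochrome b6f complex, the ATP synthase, the NDH complex of cyclic electron flow and the large subunit of Rubisco, together with ribosomal proteins and an RNA polymerase. The remaining subunits of these complexes come from the nucleus. Plastid genes lie mostly in polycistronic units, and the plastid-encoded polymerase transcribes most photosynthesis genes, while a phage-type polymerase imported from the nucleus transcribes the rpoB unit and accD. Green stems carry chloroplasts in the cortex. Plant plastid transcripts have only short-lived poly(A) tails, and the usual Affymetrix labelling starts from such tails, so the signals need not follow the total amount of a plastid transcript.

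The values are MAS5 signals on a linear scale with equal trimmed means on both arrays (500.04 each), so each ratio is relative to the average of its array. Signals under a floor of 104.0, the 40th percentile of all signals, were given only a bound, and no ratio was formed when both were under it. With 1 array per group there is no spread between samples and no test, and a difference cannot be set against variation between plants, extractions or hybridizations. Between probe sets that name the same gene, the pooled SD of the log2 ratio was 0.35 (121 probe sets of 59 genes). In bulk stem RNA, fewer green cells and less plastid RNA per cell cannot be told apart. AtC3H14 itself had a signal of 8655 in 35S::AtC3H14 stem and 244 in wild-type stem, in the direction of the label. The spiked hybridization controls were higher on the 35S::AtC3H14 array by 0.52 on the log2 scale on average (18 probe sets, from 0.22 to 0.81). The brightest of them, the cre probe sets, had the smallest differences, from 0.22 to 0.32. Scaling to the hybridization controls lowers every log2 ratio of a gene measured on both arrays by the mean of 0.52. Any such measured log2 ratio given here between 0 and 0.52 turns negative with it, while a bound moves by less. For genes as bright as the cre controls, this shift is larger than those controls showed. Of the tissue markers, 3 of 5 for green tissue (RCA, PRK and LHCB4.1) were measured, with log2 ratios from -0.32 to 0.09. Of 7 for xylem and fibre, IRX10 and IRX15 of xylan synthesis were measured, at -0.02 and -0.45. SWEET11, the single measured phloem marker of 3, had a log2 ratio of -3.71, and WSD1, the single epidermal one of 4, a bound of 2.16. Of the 4 flower markers, AP1, AP3 and AG had no probe set that named 1 gene, and the symbol A9 was not found in the gene table. What part such shifts in tissue markers have in the plastid values was not tested.

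Plastid-encoded transcripts did not move as a block. Most genes of photosystem II and rbcL were lower in 35S::AtC3H14 stem than in wild-type stem, while genes of the ATP synthase, the NDH complex, the ribosome and the RNA polymerase were mostly higher. Of the 69 genes, 65 were measured on both arrays, atpI, rpoB and psbN had a bound because they lay under the floor in wild type, and ndhF lay under the floor on both arrays, with a signal of 47.1 in 35S::AtC3H14 stem and 32.9 in wild-type stem. The median log2 ratio of the 65 genes measured on both arrays was 0.24, against 0.04 for the 12826 probe sets measured on both arrays. With the 3 bounds included it was 0.25, and -0.27 after scaling to the hybridization controls. The quartiles of the 65 measured genes were -0.13 and 0.54, and those of all probe sets -0.33 and 0.38.

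**Figure D1:**
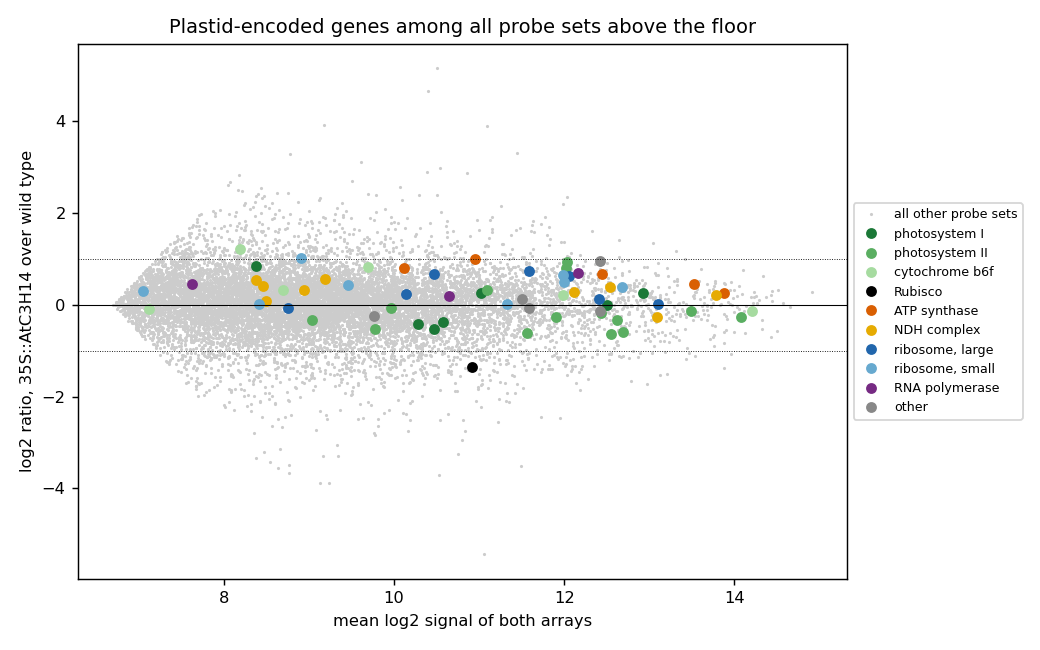
Log2 ratio of 35S::AtC3H14 over wild type (vertical axis) against the mean log2 signal of both arrays (horizontal axis) for every probe set above the floor on both arrays, with the 65 measured plastid genes coloured by functional group and dotted lines at 2-fold. The plastid genes lie between log2 ratios of -1.37 (rbcL) and 1.21 (petN), at signals from near the floor to the brightest of the array.

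At 2-fold, petN and rps15 were higher among the 65 measured genes, or 2 genes against 4.51% of all probe sets measured on both arrays. One gene, rbcL, was at least 2-fold lower, against 5.61% of all probe sets. At 1.5-fold, 15 of the 65 genes were higher (23.1%), against 14.5% of all probe sets. These were atpA, atpF, atpH, matK, petL, petN, psbI, psbK, rpl16, rpl22, rpl36, rpoA, rps4, rps15 and ycf3. At the same size 4 genes were lower (6.15%), against 14.1% of all probe sets, and these were psbA, psbH, psbZ and rbcL, all of photosystem II or Rubisco. A ratio above 1 was found for 42 of the 65 genes (64.6%), against 53.3% of all probe sets, and a ratio below 1 for 23 (35.4%), against 46.7%. After scaling to the hybridization controls, 17 of the 65 had a ratio above 1 and 48 below. Of the 3 genes with a bound, atpI and psbN passed 2-fold, against 17.6% of the 1045 probe sets that lay below the floor in wild type alone.

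**Figure D2:**
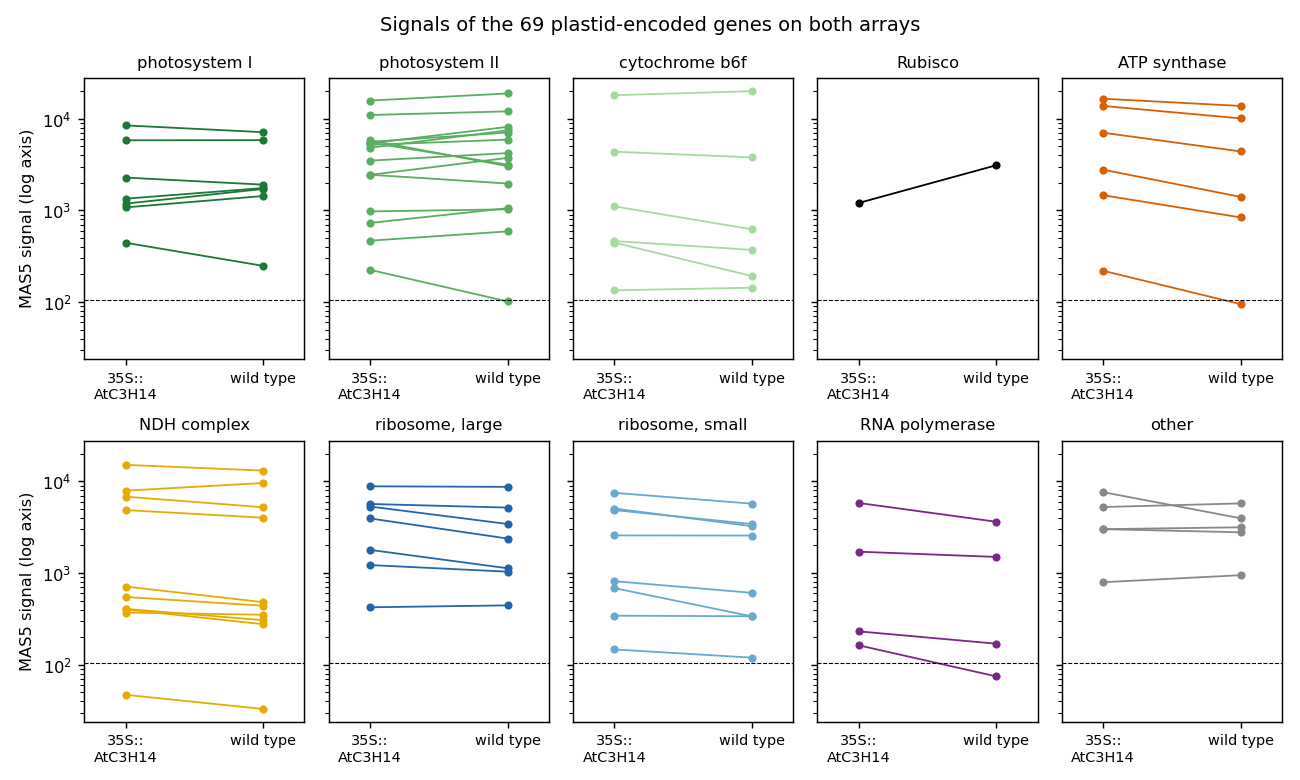
MAS5 signal (log axis) of each of the 69 plastid genes in 35S::AtC3H14 stem (left) and wild-type stem (right), 1 line per gene and 1 panel per functional group, with the floor dashed. Lines fall towards wild type for all 6 ATP synthase genes and climb towards wild type for rbcL and most photosystem II genes.

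The gene with the largest difference was rbcL, which encodes the large, catalytic subunit of Rubisco. Its signal was 1205 in 35S::AtC3H14 stem and 3106 in wild-type stem, 2.58-fold lower, a log2 ratio of -1.37. Its neighbours on the plastid genome differed far less. The signal of accD, which encodes a subunit of the acetyl-CoA carboxylase of fatty acid synthesis, was 795 in 35S::AtC3H14 stem and 948 in wild-type stem (log2 ratio -0.25). On the other side atpB, which encodes the beta subunit of the ATP synthase, had 16511 in 35S::AtC3H14 stem and 13766 in wild-type stem (0.26, and below 0 after scaling to the hybridization controls). Among nuclear genes of carbon fixation, RCA, the activase that frees Rubisco of inhibitors, had 19298 in 35S::AtC3H14 stem and 18741 in wild-type stem, a log2 ratio of 0.04. The other measured genes of that list were PRK, phosphoribulokinase, at 0.09 and SBPASE, sedoheptulose bisphosphatase, with 4374 in 35S::AtC3H14 stem and 2735 in wild-type stem (0.68).

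Photosystem II had 15 member genes, 14 of them measured on both arrays. Of these, 11 were lower and 3 higher in 35S::AtC3H14 stem, and the median log2 ratio with the bound of psbN was -0.26. The signal of psbA, which encodes the D1 reaction centre protein that is replaced during repair, was 2439 in 35S::AtC3H14 stem and 3734 in wild-type stem, 1.53-fold lower. psbZ, for a small subunit at the edge of the complex, had 4819 in 35S::AtC3H14 stem and 7453 in wild-type stem, 1.55-fold lower and the lowest ratio of the group. psbH, for a small phosphoprotein, had 5392 in 35S::AtC3H14 stem and 8137 in wild-type stem, 1.51-fold lower. These 3 genes lie apart from each other on the plastid genome and were the only photosystem II genes lower by 1.5-fold at the deposited scaling.

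The inner antenna proteins of photosystem II did not share a direction. psbB, which encodes CP47, had 729 in 35S::AtC3H14 stem and 1056 in wild-type stem (log2 ratio -0.53), whereas psbC, which encodes CP43, had 2448 in 35S::AtC3H14 stem and 1962 in wild-type stem (0.32, and -0.20 after scaling to the hybridization controls). psbD, for the D2 reaction centre protein, had 974 in 35S::AtC3H14 stem and 1027 in wild-type stem (-0.08). The cytochrome b559 genes psbE and psbF and the small-subunit genes psbJ and psbL had log2 ratios between -0.34 and -0.13. The brightest gene of the group, psbM, had 15760 in 35S::AtC3H14 stem and 18840 in wild-type stem (-0.26), and psbT had a log2 ratio of -0.34.

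A pair of photosystem II genes went the other way. psbK, for a small subunit bound near CP43, had 5807 in 35S::AtC3H14 stem and 3038 in wild-type stem, 1.91-fold higher. psbI, for a small subunit next to D1, had 5487 in 35S::AtC3H14 stem and 3147 in wild-type stem, 1.74-fold higher. They are neighbours on the plastid genome, in a stretch where the following ATP synthase genes were higher too. psbN, which lies between psbT and psbH on the opposite strand and is known from tobacco to serve the assembly of the complex, had 225 in 35S::AtC3H14 stem and 102 in wild-type stem. The wild-type signal was just under the floor, which gives at least 2.16-fold higher. Its flanking genes psbT and psbH were lower, so the opposite-strand gene differed in direction from the unit around it.

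Photosystem I had 7 genes, counting the assembly factors ycf3 and ycf4, with 3 above and 4 below a log2 ratio of 0 and a median of -0.00448. psaA and psaB encode the reaction centre pair. psaA had 1078 in 35S::AtC3H14 stem and 1434 in wild-type stem (-0.41), and psaB had 5813 in 35S::AtC3H14 stem and 5831 in wild-type stem, almost equal. psaC, which encodes the protein that carries the terminal iron-sulphur clusters, had 1341 in 35S::AtC3H14 stem and 1752 in wild-type stem (-0.39). The small-subunit genes psaI and psaJ, the second the brightest of the group, had log2 ratios of 0.26 and 0.25, both below 0 after scaling to the hybridization controls.

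The assembly factors of photosystem I lay at opposite ends of the group. ycf3 had 444 in 35S::AtC3H14 stem and 248 in wild-type stem, 1.79-fold higher. ycf4 had 1184 in 35S::AtC3H14 stem and 1712 in wild-type stem, 1.45-fold lower. Both act in assembling the same complex, and their log2 ratios, 0.84 and -0.53, were the highest and the lowest of the 7.

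**Figure D3:**
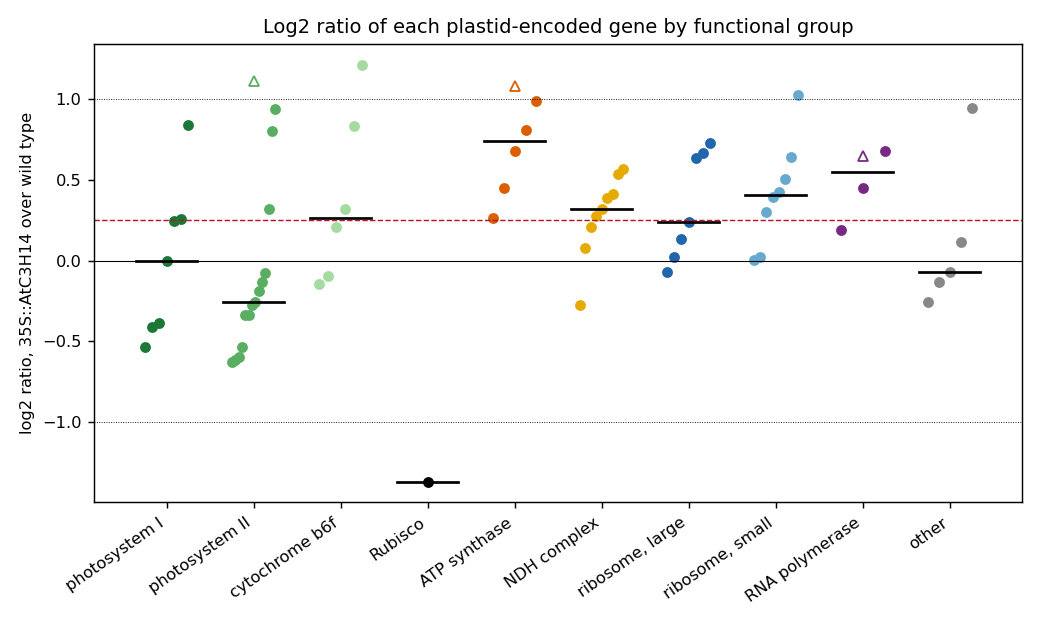
Log2 ratio of 35S::AtC3H14 over wild type for each plastid gene by functional group, with circles for genes measured on both arrays, open triangles for bounds, black bars for group medians with bounds included, a red dashed line at the median of all 68 genes (0.25) and dotted lines at 2-fold. The group medians of the ATP synthase (0.74), RNA polymerase (0.55), small ribosomal subunit (0.41), NDH complex (0.32) and cytochrome b6f (0.26) lie above that line, with single genes on either side of it, and most of photosystem II and rbcL lie below 0.

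The cytochrome b6f complex, which passes electrons between the photosystems, had 4 genes above and 2 below a log2 ratio of 0, with a median of 0.26 that was -0.26 after scaling to the hybridization controls. The small-subunit gene petN had the highest measured log2 ratio of all plastid genes, 1.21, with 445 in 35S::AtC3H14 stem and 192 in wild-type stem, 2.31-fold higher. With the floor raised to the 60th percentile (308), its wild-type signal falls under the floor and the bound becomes 0.53. petL, for another small subunit, had 1106 in 35S::AtC3H14 stem and 622 in wild-type stem (0.83), and petG had a log2 ratio of 0.32. The genes of the large subunits lay within the SD between probe sets of 0. petA, for cytochrome f, had a log2 ratio of 0.21, petB, for cytochrome b6, of -0.15 with 18034 in 35S::AtC3H14 stem and 19949 in wild-type stem, and petD, for subunit IV, of -0.09. Among petA, petG, petL and petN, those of petL and petN alone stayed above 0 after scaling to the hybridization controls.

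The ATP synthase genes formed the group with the highest median, 0.74 for 6 genes with the bound of atpI included, and 0.22 after scaling to the hybridization controls. All 5 measured genes were higher in 35S::AtC3H14 stem, and 3 of the 5 stayed so with that scaling. atpF, for a stalk subunit that holds the catalytic head, had 2779 in 35S::AtC3H14 stem and 1402 in wild-type stem, 1.98-fold higher. atpH, for the subunit of the rotating membrane ring, had 1464 in 35S::AtC3H14 stem and 837 in wild-type stem, 1.75-fold higher.

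Genes of the catalytic head of the ATP synthase lie in separate units. atpA, for the alpha subunit, had 7030 in 35S::AtC3H14 stem and 4392 in wild-type stem, 1.60-fold higher, and lies with atpF, atpH, atpI and rps2, the last at a log2 ratio of 0.42. atpI, for the membrane subunit beside the ring, had 219 in 35S::AtC3H14 stem and 94.8 in wild-type stem, at least 2.11-fold higher. In the separate atpB unit, atpE, for the epsilon subunit, had 13774 in 35S::AtC3H14 stem and 10073 in wild-type stem (0.45). The lowest ratio of the group was that of atpB (0.26), and both genes of this unit were below 0 after scaling to the hybridization controls. The nuclear genes for the gamma subunit, ATPC1 and ATPC2, had log2 ratios of 0.17 and 0.66, the second at a low signal, with 188 in 35S::AtC3H14 stem and 119 in wild-type stem.

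The NDH complex, which returns electrons to the plastoquinone pool, had 10 member genes, 9 of them measured. Of these 8 were higher in 35S::AtC3H14 stem, with a median log2 ratio of 0.32 that was -0.20 after scaling to the hybridization controls. ndhE had the highest ratio, with 713 in 35S::AtC3H14 stem and 482 in wild-type stem (0.57), and ndhH followed, with 402 in 35S::AtC3H14 stem and 277 in wild-type stem (0.54). The brightest, ndhI, for a subunit with iron-sulphur clusters, had 15146 in 35S::AtC3H14 stem and 13108 in wild-type stem (0.21). ndhC was the exception, with 7923 in 35S::AtC3H14 stem and 9596 in wild-type stem (-0.28). No gene of this group reached 1.5-fold in either direction. ndhA, ndhD, ndhG, ndhJ and ndhK had log2 ratios between 0.08 and 0.41.

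The ribosomal protein genes were higher in 14 of 15 cases, with a median log2 ratio of 0.39, or -0.13 after scaling to the hybridization controls, when 5 of the 15 were above 0. In the small subunit all 8 measured genes had ratios above 1. rps15 had 686 in 35S::AtC3H14 stem and 337 in wild-type stem, 2.03-fold higher (1.02). That log2 ratio fell just under 1 with quantile normalization (0.99) and loess (0.99). It was 0.92 with median centring, 0.84 with a pseudocount equal to the floor and 0.50 after scaling to the hybridization controls. rps4, whose bacterial counterpart binds ribosomal RNA early in assembly, had 5061 in 35S::AtC3H14 stem and 3242 in wild-type stem (0.64), and the brightest, rps3, had 7497 in 35S::AtC3H14 stem and 5720 in wild-type stem (0.39). At the low end rps18 had 2575 in 35S::AtC3H14 stem and 2565 in wild-type stem, and rps16 had a log2 ratio of 0.02, so for both the signals were nearly equal.

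In the large subunit rpl36 had 3945 in 35S::AtC3H14 stem and 2380 in wild-type stem, 1.66-fold higher. rpl16 and rpl22 had log2 ratios of 0.67 and 0.63. The single ribosomal protein gene below 0 was rpl20, with 423 in 35S::AtC3H14 stem and 444 in wild-type stem (-0.07), and rpl33, the brightest, had 8837 in 35S::AtC3H14 stem and 8714 in wild-type stem (0.02). The other large-subunit genes, rpl14 and rpl32, had log2 ratios of 0.24 and 0.13.

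All 4 genes of the plastid-encoded RNA polymerase had higher signals in 35S::AtC3H14 stem, with a median log2 ratio of 0.55 that was 0.04 after scaling to the hybridization controls. rpoA, for the alpha subunit, had 5814 in 35S::AtC3H14 stem and 3627 in wild-type stem, 1.60-fold higher. rpoB, for the beta subunit, had 163 in 35S::AtC3H14 stem and 74.6 in wild-type stem, at least 1.57-fold higher. rpoC1 and rpoC2, which encode the other large subunits, had log2 ratios of 0.19 and 0.45, and both were below 0 after that scaling. Except for rpoA these probe sets lay at low to middle signals, with rpoC2 at 231 in 35S::AtC3H14 stem and 170 in wild-type stem.

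The remaining 5 genes differed among themselves. matK, which encodes an intron maturase and lies within the intron of a transfer RNA gene, had 7626 in 35S::AtC3H14 stem and 3960 in wild-type stem, 1.93-fold higher. clpP, for the catalytic subunit of a plastid protease, had 5251 in 35S::AtC3H14 stem and 5753 in wild-type stem (-0.13). The log2 ratios of ccsA, which serves haem attachment to c-type cytochromes, of cemA, for a protein of the envelope membrane, and of accD were 0.11, -0.07 and -0.25. Apart from matK, therefore, this set stayed within 0.35 of 0 on the log2 scale.

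Differences between functional groups were read within the same arrays. A constant shift of all measured ratios, as in median centring or scaling to the hybridization controls, cancels there by construction. Bounds do not move by the full shift. The difference in medians to the RNA polymerase genes, which include the bound of rpoB, went from -0.68 to -0.70 with either. The hybridization controls themselves differed less at the highest signals, and a shift that follows them along the signal range was not tried. The photosystem, cytochrome b6f and rbcL genes together, 29 genes, had a median log2 ratio of -0.13 and a mean of 0.0055, which differ in sign. The median was 0.87 below that of the ATP synthase genes, 0.68 below that of the RNA polymerase genes, 0.52 below that of the ribosomal protein genes and 0.45 below that of the NDH genes. With means in place of medians these differences were smaller, at -0.70, -0.49, -0.37 and -0.27. Quantile normalization and loess, which can change such differences, gave -0.91 and -0.86 to the ATP synthase genes and -0.55 and -0.51 to the ribosomal protein genes. Photosystem II alone was 0.65 below the ribosomal protein genes by medians, with a difference of -0.65 after quantile normalization and -0.62 after loess, but of -0.43 by means. The ranges of single genes overlapped, from -0.63 to 0.93 in photosystem II and from -0.07 to 1.02 among ribosomal protein genes. These are descriptions of 2 arrays, and whether such differences recur between plants was not measured.

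**Figure D4:**
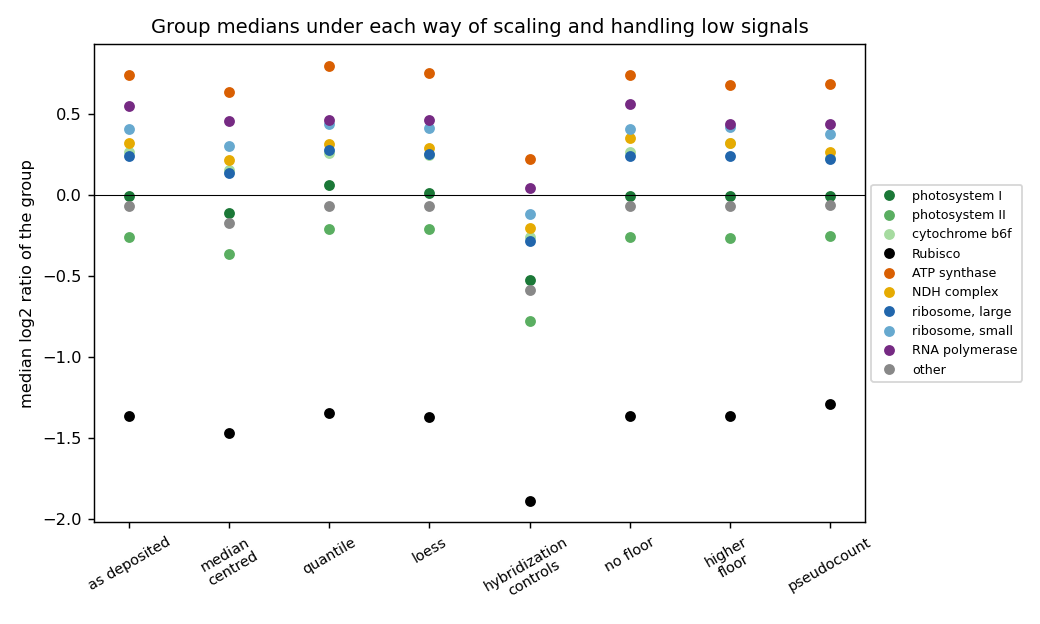
Median log2 ratio of each functional group (vertical axis) for the deposited scaling and 7 alternatives (horizontal axis), bounds included. The ATP synthase median is the highest and that of Rubisco the lowest under every setting, while scaling to the hybridization controls moves every group down together by construction.

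Genes of the same transcription unit tended to have similar ratios. Over 16 units known from the plastid genome, the mean absolute difference in log2 ratio was 0.30 for the 89 pairs of measured genes within a unit, against 0.56 for all 2080 pairs of measured plastid genes. All ratios lay on the same side of 1 in 10 of the 15 units with at least 2 measured genes. Most of these 10 had only 2 measured genes, and 64.6% of all measured plastid genes were above 1. The side of 1 also depends on the scaling. In the atpI unit, with all ratios above 1, rps2 had -0.10 and atpF 0.46 after scaling to the hybridization controls. In the psbB unit psbB, psbT, psbH, petB and petD were all below 0, from -0.59 to -0.09. In the psbE unit all 4 genes were below 0, from -0.34 to -0.13. The psbK and psbI ratios differed by 0.13. Neighbouring probe sets in a unit may read the same polycistronic RNA, so these genes are not independent points.

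At the deposited scaling some units held genes of different direction, in most cases of different function. In the ndhH unit the 6 ndh genes had log2 ratios from 0.21 to 0.57, and psaC, which lies among them, had -0.39. In the psaA unit rps14 had 0.30, against -0.41 for psaA and -0.00448 for psaB, although rps14 was dim, with 147 in 35S::AtC3H14 stem and 120 in wild-type stem. In the psbD unit psbC and psbZ, both of photosystem II, differed by 0.95. These directions depend on the scaling. With the hybridization controls rps14 had -0.22 and psbC -0.20, below 0 like psaA and psbZ. Of the 6 ndh genes of the ndhH unit, ndhE (0.04) and ndhH (0.02) alone stayed above 0. In the long ribosomal protein unit that ends in rpoA, all 7 measured genes were above 0, from 0.24 to 0.73. After scaling to the hybridization controls they ran from -0.28 (rpl14) to 0.21 (rpl36). Along the plastid genome, the 7 measured genes from psbK to rpoC2 all lay above the median of the plastid genes, and the 10 from psaJ to petD all lay below it.

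**Figure D5:**
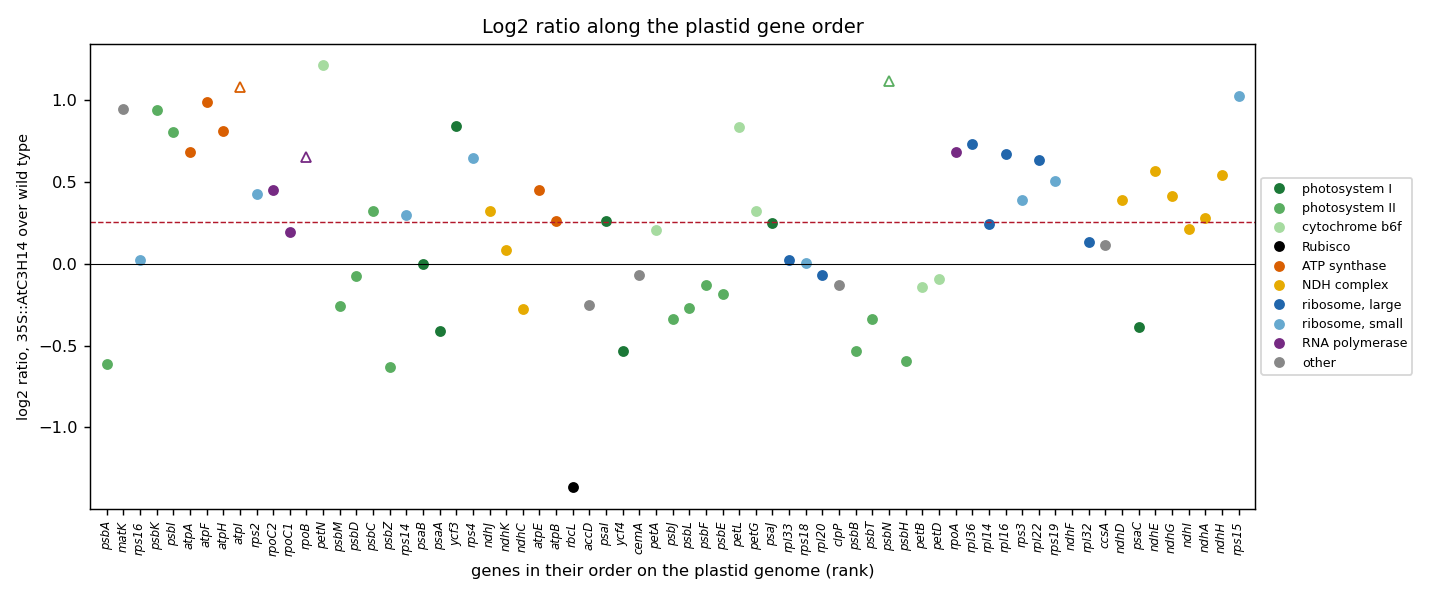
Log2 ratio of 35S::AtC3H14 over wild type for the plastid genes in their order on the plastid genome (rank on the horizontal axis), coloured by functional group, with open triangles for bounds and a red dashed line at the median of all 68 genes (0.25). Genes from psbK to rpoC2 and most of those from rpoA to rps19 stand above the line, and those from psaJ to petD below it, apart from the bound of psbN.

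Across the 65 measured genes Spearman's rho of the log2 ratio with the mean log2 signal was -0.20, and with gene length it was -0.02. The median log2 ratio was 0.21 for the 33 brighter genes and 0.28 for the 32 dimmer ones. Members were bright on this array, with a median signal of 2448 in 35S::AtC3H14 stem and 2380 in wild-type stem, against medians over all probe sets of 194 in 35S::AtC3H14 stem and 180 in wild-type stem. Signals of different probe sets are not compared as levels, since petB and petD, of the same unit, differed by far in signal.

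Nuclear genes of chloroplast function were read beside the plastid genes from lists chosen by name. Of 211 entries, 32 were the single gene of a probe set and 28 were measured. Of these, 20 lay above 0 and 8 below, against 53.3% and 46.7% of all probe sets measured on both arrays. The median was 0.19 with the bound of CRR28 included, or -0.33 after scaling to the hybridization controls. At 2-fold, 2 were higher and none lower, against 4.51% higher and 5.61% lower of all probe sets. FTSZ2-2, of the plastid division ring, had 816 in 35S::AtC3H14 stem and 306 in wild-type stem, 2.67-fold higher, and LHCB4.3, an antenna protein of photosystem II, had 2660 in 35S::AtC3H14 stem and 1151 in wild-type stem, 2.31-fold higher. With the hybridization-control scaling their log2 ratios were 0.89 and 0.69. The other minor antenna genes LHCB4.1 and LHCB4.2 had log2 ratios of -0.32 and -0.19.

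At the deposited scaling the measured nuclear genes for the NDH complex lay below 0, whereas 8 of 9 plastid ones lay above it. Of all probe sets measured on both arrays, 46.7% lay below 0 and 53.3% above. After scaling to the hybridization controls both medians were negative, -0.70 for the nuclear list and -0.20 for the plastid genes. Of the 4 measured nuclear genes 3 encode subunits, with NDHN at 539 in 35S::AtC3H14 stem and 968 in wild-type stem (-0.84), and NDHS at 1882 in 35S::AtC3H14 stem and 2923 in wild-type stem (-0.64). The subunit gene NDHL and the editing factor CRR21 had log2 ratios of -0.18 and -0.08, and the editing factor CRR28 had a bound of 0.44. In chlorophyll synthesis all 6 measured genes were above 0, against 53.3% of all probe sets, with a median of 0.67. After scaling to the hybridization controls 4 of the 6 stayed above 0. CHLI2, a subunit of magnesium chelatase, was highest at 0.78, followed by HEMB1, which forms porphobilinogen, at 0.76, PORB, which reduces protochlorophyllide, at 0.75 and CHLM, a methyltransferase of the magnesium branch, at 0.59. No sigma factor or other gene of the plastid transcription list that was matched to a single gene had a probe set naming it alone. The entries SIGB, SIG1, RPOTP, RPOTMP, RPOT and TRXZ were not so matched, and no probe set was looked up under these symbols. The mitochondrion-encoded genes, the other organelle transcripts, had a median log2 ratio of -0.46 over 9 genes with a ratio or bound. Of these 3 were bounds, and the 6 measured ran from -1.84 to 0.36, with 2 above 0 and 4 below. Apart from cox1 and nad4, none had a signal above that of nad4L in wild-type stem (557).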

How the data were processed

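The authors' deposited values are MAS5 signal intensity values per probe set, 1 array per sample, per the submitters' processing notes. Its version and the probe definitions are not given in the sources used here, and detection calls were not used here. The 64 control probe sets were set apart. Log2 ratios of 35S::AtC3H14 over wild type were formed above a floor of 104.0 (40th percentile), with bounds below it, and described at 2-fold and 1.5-fold, with no test. The functions were tested on simulated data. Genes were matched by Entrez number to the TAIR10.1 table, mitochondrial genes by symbol. The 69 members were grouped by symbol, and signals are printed for the highest, lowest and brightest member of each group and for members past 2-fold. Further members were named after their values were seen. Members and lists were chosen with earlier results of these data known. In the marker list the symbol FDH matched a different gene and was replaced by KCS10. Probe sequences and a genome were not used here. Python 3.11.15, pandas 2.3.3 and statsmodels 0.14.6 (loess) were used.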

Additional observations from a re-analysis of the deposited data

Results flagged for a closer look

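Among the control probe sets, which lie outside the comparisons above, the probe set for 25S ribosomal RNA, a cytosolic ribosomal RNA, had a signal of 4209 in 35S::AtC3H14 stem and 361 in wild-type stem, 11.6-fold higher. One of the GAPDH controls, which reads its 3' end (the r2 version), had 11622 in 35S::AtC3H14 stem and 5438 in wild-type stem, 2.14-fold higher, with a log2 ratio of 0.57 after scaling to the hybridization controls. The other GAPDH controls were 1.54 to 1.78-fold higher. Among control probe sets above the floor on both arrays, the 25S probe set and this GAPDH probe set alone were at least 2-fold above the wild-type signal. Other controls past 2-fold higher lay under the floor on both arrays. No plastid gene reached the ratio of the 25S probe set, and the part of the 25S or GAPDH differences in the plastid values was not tested.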

How the results depend on the processing

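Median centring, quantile normalization, loess, no floor, the floor at the 60th percentile (308) and a pseudocount equal to the floor kept the plastid median between 0.14 and 0.27. Median centring gave 0.14 for all plastid genes and -0.36 for photosystem II. Genes at least 2-fold higher numbered 1 with loess, 1 with the higher floor, 5 with no floor, 0 with the pseudocount and 0 with the hybridization-control scaling, and 15 at 1.5-fold, when 4 were lower. Scaling to the hybridization controls gave 6 lower genes and medians of -0.27 for all plastid genes, -0.53 for photosystem I, -0.78 for photosystem II, -0.26 for cytochrome b6f, -1.89 for Rubisco, 0.22 for ATP synthase, -0.20 for NDH, -0.28 and -0.12 for the large and small ribosomal subunits, 0.041 for RNA polymerase and -0.59 for the other genes, by its construction. Means in place of medians gave -0.054 for photosystem II and 0.12 for the other genes. Of 193 single-gene values, 162 stayed within the SD of 0.35, 31 moved, 27 of them with the hybridization-control scaling, and 0 reversed past 2-fold. Only 1 value stayed the same with that scaling. Most of these genes lay within 2-fold at the deposited scaling, so the 0 says little about their signs. Some signs did change with the hybridization controls, as for atpB (0.26 to -0.26) and rps3 (0.39 to -0.13). Group medians were judged against the SD of 0.35 divided by the square root of the number of genes. This is a fixed yardstick for the effect of processing and not an error of the median. Genes of a unit are not independent points, and each group has 1 array. Differences between groups were added after seeing the data. With means, the photosystem, b6f and rbcL genes minus ATP synthase gave -0.70, minus NDH -0.27, minus ribosomal proteins -0.37 and minus RNA polymerase -0.49. They gave -0.43 for photosystem II minus ribosomal proteins, -0.76 for photosystem II minus ATP synthase and 0.054 for photosystem I minus photosystem II. Constant shifts of all measured ratios cannot change these differences, apart from the effect of bounds. Median centring and the scaling to the hybridization controls therefore do not test them. The controls themselves did not differ by a constant. Their log2 ratios ran from 0.22 to 0.32 for the bright cre probe sets and from 0.46 to 0.81 for the others. A shift that follows them along the signal range was not tried. Leaving out _s_at or _x_at probe sets, leaving out repeated genes and taking the brightest probe set were not run, since each member has 1 probe set and none is of those kinds. No paired analysis was possible because each group has 1 array. The number of arrays limits the precision, and 58 genes were measured on both arrays with the higher floor.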

Other observations

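The plastid genome carries some genes in 2 copies in its inverted repeat, and the annotation gives 8 probe sets to both copies of such a gene, so no gene is named from them here. Of these, 6 were above the floor on both arrays. All 6 had log2 ratios above 0, from 0.20 to 0.91, with a median of 0.58, against 53.3% of all probe sets above 0. Scaling to the hybridization controls would lower each by 0.52, which takes the lowest below 0. None was at least 2-fold higher.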
